A study of Mus musculus with 6 samples.

Results

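The prostaglandin and leukotriene genes examined here were Ptgs1, Ptgs2, Hpgds, Ptges, Hpgd, Alox5, Alox5ap, Ltc4s, Pla2g4a and Cysltr1. They are 10 of the 23608 rows of the table of counts, chosen by gene symbol, and all 10 had a row. The counts come from RNA-seq of AE9a leukaemia cells, which are mouse fetal liver cells transduced with a retrovirus that carries GFP and AML1-ETO9a, a shortened AML1-ETO fusion. All the cells carried 1 floxed copy of Usp18 and the UBCER-Cre transgene, a tamoxifen-activated Cre recombinase driven by the ubiquitin C promoter (Usp18+/f UBCER-Cre). C57BL/6 recipient mice, which the study's methods give as 8 to 12 weeks old and of both sexes, were transplanted with these cells and allowed to become sick. The mice were then injected with oil (labelled Usp18+/f, 3 libraries) or with tamoxifen in oil, which is meant to remove the floxed copy (labelled Usp18+/D, 3 libraries). GFP+, lineage-negative (Lin-), c-Kit+ splenocytes were sorted on day 3, the first injection being day 0. The comparison of oil with tamoxifen asks what loss of 1 copy of Usp18, which encodes an inhibitor of type I interferon signalling, does to the transcripts of established leukaemia. Exposure to tamoxifen and Cre activity also differed between the groups along with the floxed copy, and their parts in a result cannot be told apart here.

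Prostaglandins and leukotrienes are short-lived lipid signals made from arachidonic acid, a fatty acid that cytosolic phospholipase A2 (Pla2g4a) frees from membranes. In the cyclooxygenase branch, Ptgs1 or Ptgs2 turn arachidonic acid into prostaglandin H2, from which Hpgds makes prostaglandin D2 and Ptges makes prostaglandin E2, while Hpgd inactivates prostaglandins. In the lipoxygenase branch, Alox5 with its helper protein Alox5ap makes leukotriene A4, Ltc4s joins it to glutathione to give leukotriene C4, and Cysltr1 is a receptor for the cysteinyl leukotrienes that follow. Myeloid cells are major producers of both families, and mast cells are known for prostaglandin D2 and leukotriene C4.

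Libraries are named by the numbers of the table, oil 1, 3 and 4 and tamoxifen 1, 2 and 4. They held 17118964 to 20741399 counts each. Levels are given as CPM, counts per 1000000 of the scaled library total, and 3 counts, taken as the floor, equal 0.145 to 0.177 CPM. The targeted gene went against its label. Usp18 was at 9.12 to 11.2 CPM in the oil libraries and at 15.1 to 27.99 CPM in the tamoxifen libraries, with a log2 fold change of 0.998 and an edgeR adjusted p of 0.0739 (0.00654 without tamoxifen 4). Directions below compare libraries by these labels alone. Tamoxifen 4 stood apart: over all tested genes its log2 CPM correlated at 0.982 to 0.985 with the oil libraries and at 0.970 to 0.973 with the other tamoxifen libraries. Of the markers of the labelled cell, Kit, Myb, Runx1 and Cd34 were present, and the myeloid granule genes Elane, at 0 in all 6 libraries, and Mpo, at 4 counts or fewer, were absent or nearly so. Presence does not mean equal levels in the 2 groups. Kit was at 447 ± 6.29 CPM in oil and 627 ± 169 CPM in tamoxifen (SD, n = 3 each). Runx1 was at 568 ± 20.0 and 724 ± 85.3 CPM, and Myb at 386 ± 10.2 and 408 ± 27.6 CPM.

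Transcripts of Ptgs1 and Alox5 rose in the libraries labelled tamoxifen, by 2.15-fold and 1.39-fold. They were the only genes of the 10 to pass the test, and each heads a branch of the pathway. Pla2g4a, upstream of both branches, was at -0.069 on the log2 scale and did not pass. Of the 10 genes, 5 had enough counts to be tested: Pla2g4a, Ptgs1, Alox5, Alox5ap and Ltc4s. The other 5, which were the inducible cyclooxygenase Ptgs2, the terminal synthases Hpgds and Ptges, the inactivating enzyme Hpgd and the receptor Cysltr1, were at or near 0. Of the 5 tested genes, 2 passed at an edgeR adjusted p under 0.05, both higher, against 1.75% of the 11614 genes tested that were called higher and 2.01% called in either direction. The log2 fold change was above 0 for 4 of the 5, with a median of 0.47, where the median of all tested genes was 0.00012. For 3 of the 5 every tamoxifen value exceeded every oil value, as it did for 13.3% of all tested genes, and 25.1% did not overlap in either direction. At an unadjusted p under 0.05 there were 4 of the 5, all higher, beside 12.6% of all tested genes higher and 7.99% lower.

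**Figure D1:**
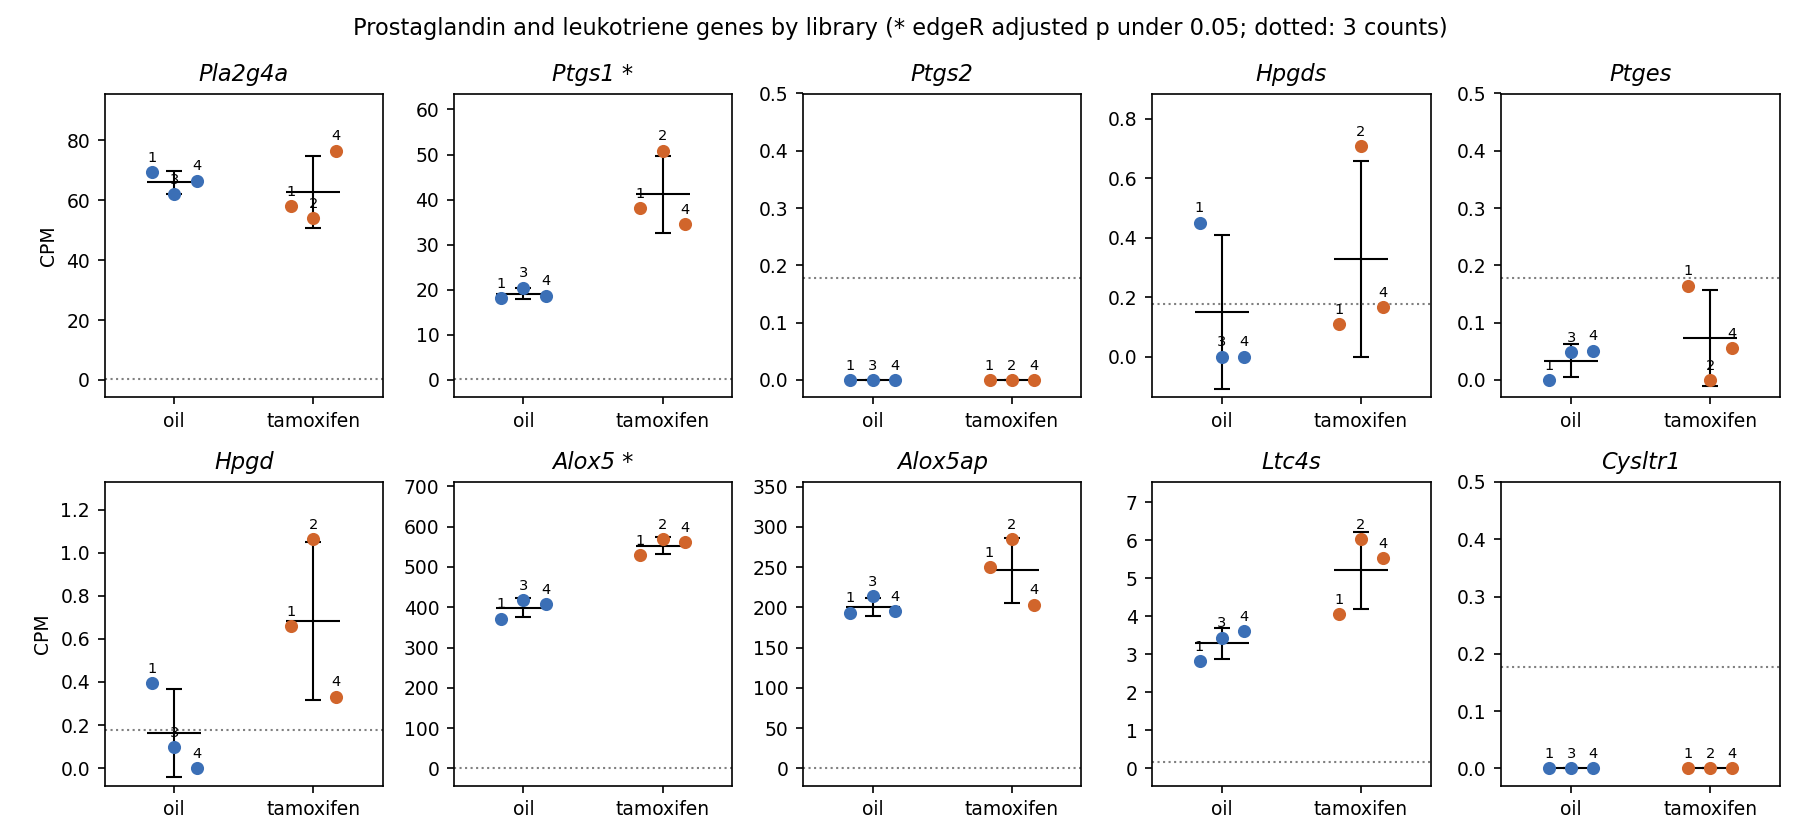
CPM of each of the 10 genes in each library (points; oil and tamoxifen, 3 libraries each), with the mean and SD as bars, on a linear axis that differs between panels. Ptgs1 lies at 18.1 to 20.5 CPM in oil and at 34.6 to 50.8 CPM in tamoxifen, and Ptgs2 and Cysltr1 are at 0 in all 6 libraries.

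The promoters of the genes whose groups did not overlap are shown with that of Ptgs2, the paralog at 0 counts. Each run is the 250 bases before the RefSeq transcription start (GRCm38.p6), 5′ to 3′ on the strand of the gene. Capitals mark a RUNX motif, shown because the AML1 part of the fusion protein binds DNA at this motif.
Ptgs1, chr2:36230176-36230425, plus strand: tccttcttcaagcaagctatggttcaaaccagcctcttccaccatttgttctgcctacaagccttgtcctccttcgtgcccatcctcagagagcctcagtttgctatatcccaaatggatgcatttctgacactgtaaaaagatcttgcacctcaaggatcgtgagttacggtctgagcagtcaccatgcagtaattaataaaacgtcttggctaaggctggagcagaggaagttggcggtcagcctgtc
Alox5, chr6:116461179-116461428, minus strand: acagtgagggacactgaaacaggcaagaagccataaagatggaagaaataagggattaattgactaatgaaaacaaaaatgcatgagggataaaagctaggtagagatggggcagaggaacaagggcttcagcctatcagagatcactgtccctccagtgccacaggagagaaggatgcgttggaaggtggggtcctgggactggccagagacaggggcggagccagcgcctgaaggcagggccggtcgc
Ltc4s, chr11:50238533-50238782, minus strand: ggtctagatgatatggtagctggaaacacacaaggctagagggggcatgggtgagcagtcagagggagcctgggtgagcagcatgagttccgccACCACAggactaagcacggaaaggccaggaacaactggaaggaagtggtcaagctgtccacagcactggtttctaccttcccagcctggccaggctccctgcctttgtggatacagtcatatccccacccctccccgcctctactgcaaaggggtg
Ptgs2, chr1:150099781-150100030, plus strand: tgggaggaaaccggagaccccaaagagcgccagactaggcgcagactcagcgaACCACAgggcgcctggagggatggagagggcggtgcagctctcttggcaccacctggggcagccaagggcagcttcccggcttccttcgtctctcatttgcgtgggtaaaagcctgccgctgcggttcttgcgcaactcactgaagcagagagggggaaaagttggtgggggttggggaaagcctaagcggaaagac

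The GC content of these 4 runs was 48% for Ptgs1, 52.8% for Alox5, 57.6% for Ltc4s and 61.6% for Ptgs2, where the median of the same 250 bases over all windows was 52.4%. RefSeq windows from 250 bases before to 50 bases after the start were found for 8 of the 10 genes, 9 windows in all, since Pla2g4a has 2. Alox5ap and Cysltr1 were not matched. The letters of 4 motifs were searched on both strands. The interferon-stimulated response element core, TTTC and TTTC with any 2 bases between, held by 3.44% of 32851 windows, the NF-kB letters, GGG and TTCC with any 3 bases between (5.56%), and the GATA letters AGATAA (11.2%) were in 0 of the 9 windows. The RUNX letters TGTGGT (16.8% of all windows) were in 3, those of Ptgs2 at 197 bases before the start, Hpgds at 250 and Ltc4s at 156. Ptgs1 and Alox5, the genes that rose, held none of the 4 in these windows, which says only that these letters are not there.

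Expression of these 10 genes in the oil libraries was dominated by the first step of the leukotriene branch. Per kilobase of exon, the scale on which genes can be compared, Alox5ap stood at 141 CPM per kb and Alox5 at 97.1 CPM per kb as oil means, which placed them at percentiles 98.1 and 96.5 of the 11428 tested genes with a known exon length. Pla2g4a followed at 10.3 CPM per kb (percentile 54.6), then Ptgs1 at 4.92 (percentile 35.5) and Ltc4s at 3.24 (percentile 27.4). The order of Alox5ap above Alox5, and of Alox5 above the other 3, was wider than the SD of each (7.94 CPM per kb for Alox5ap and 5.91 CPM per kb for Alox5). In the tamoxifen libraries Alox5ap (173 CPM per kb) and Alox5 (135 CPM per kb) again led. There Ptgs1, at 10.6 ± 2.20 CPM per kb, and Pla2g4a, at 9.83 ± 1.88 CPM per kb (SD, n = 3 each), did not differ beyond their spread, and Ltc4s was the lowest of the tested genes at 5.13 CPM per kb. The summed CPM of the 10 genes was 656 to 717 in the oil libraries and 879 to 966 in the tamoxifen libraries. The groups did not overlap. Of single tested genes 13.3% were higher in every tamoxifen library, which is not a background for a sum. Most of this sum was Alox5, at 371 to 418 CPM in oil and 528 to 568 CPM in tamoxifen. It therefore largely repeats the result of that gene and is not a separate result about the 10.

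**Figure D2:**
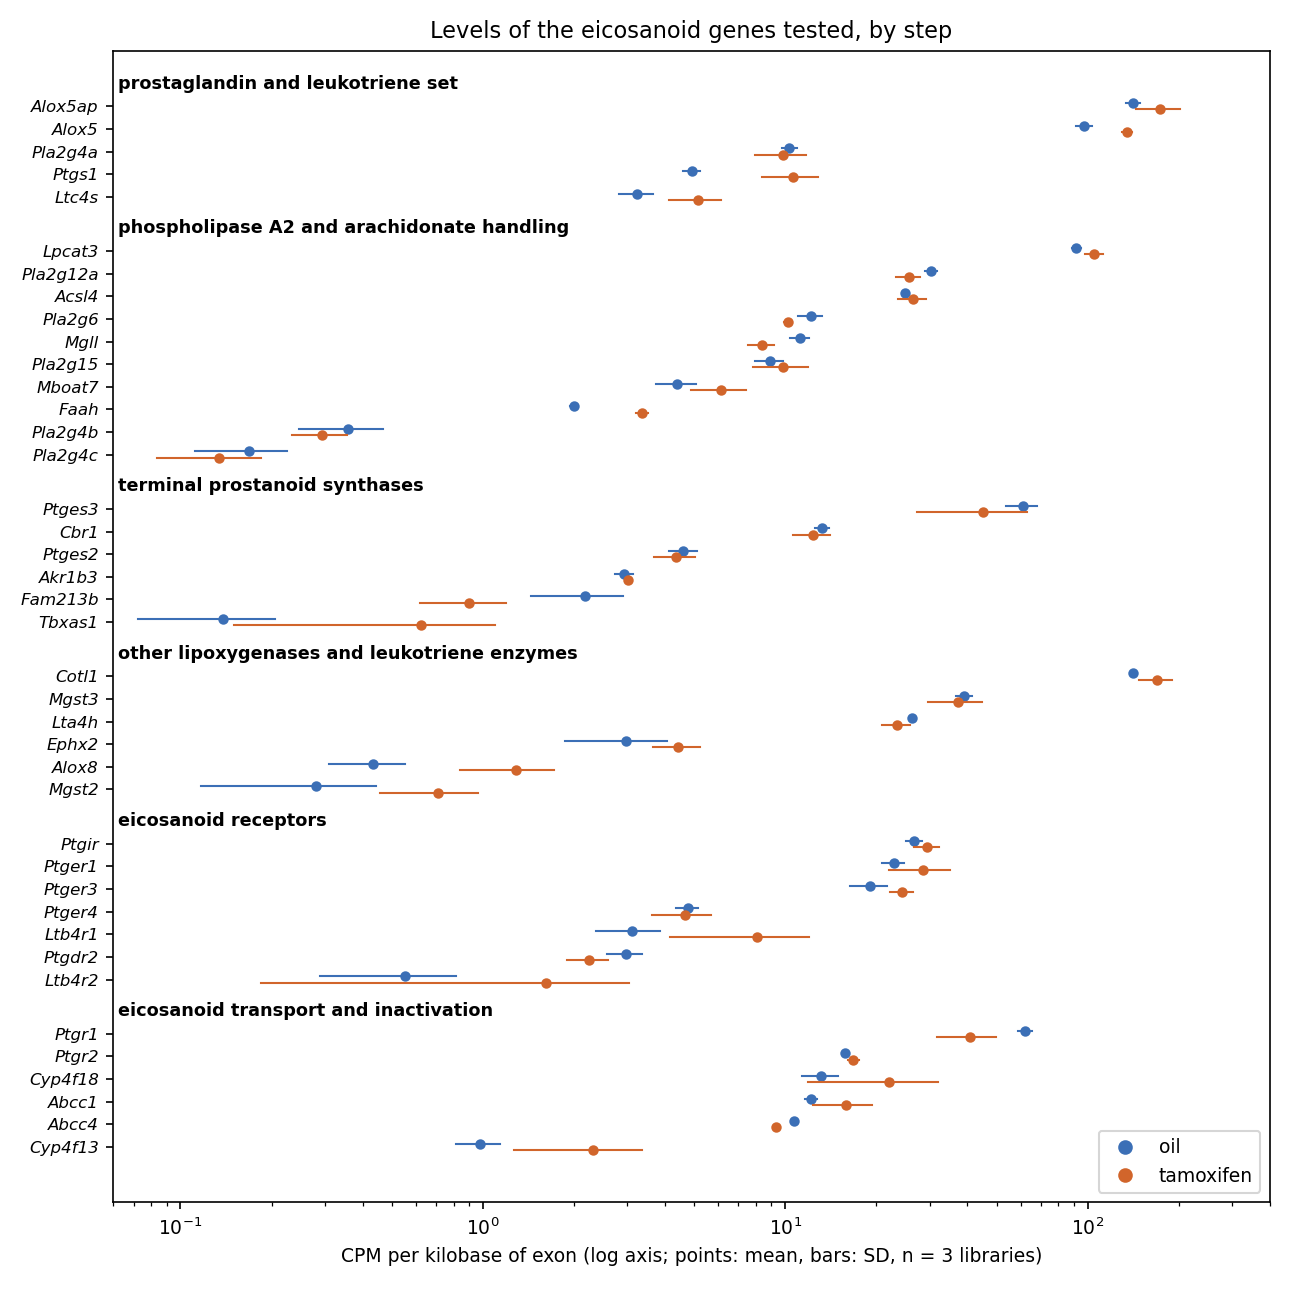
CPM per kilobase of exon on a log axis, as mean (points) and SD (bars) of the 3 oil and the 3 tamoxifen libraries, for the 5 tested genes of the set and the 35 other tested eicosanoid genes, grouped by list. Alox5ap (141 in oil, 173 in tamoxifen) and Alox5 (97.1 and 135) stand far to the right of Pla2g4a, Ptgs1 and Ltc4s, whose group means lie between 3.24 and 10.6 CPM per kb.

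The transcript of Pla2g4a, taken here for the release of arachidonic acid, showed no shift that the spread allowed to be called. Release itself was not measured, and other genes that handle arachidonic acid are described below. Pla2g4a (GRCm38 chr1:149829618-149961290, minus strand) had 69.4 (oil 1), 61.9 (oil 3) and 66.5 CPM (oil 4) against 58.0 (tamoxifen 1), 54.1 (tamoxifen 2) and 76.5 CPM (tamoxifen 4). Tamoxifen 1 and 2 lay below all the oil libraries and tamoxifen 4 above all of them. The means were 66.0 ± 3.78 and 62.9 ± 11.99 CPM (SD, n = 3 each). On the log2 scale tamoxifen minus oil was -0.069 (SE 0.14, 95% interval -0.38 to 0.25), and the edgeR adjusted p was 0.786. Without tamoxifen 4 it was -0.23 with an adjusted p of 0.0547, and without tamoxifen 2 it was 0.029, so the sign of this value rests on single libraries.

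In the cyclooxygenase branch, Ptgs1 was the only one of the 10 genes with enough counts to be tested. It encodes cyclooxygenase-1, the constitutive form of the enzyme. Ptgs1 (chr2:36230426-36252272, plus strand) had 18.1 (oil 1), 20.5 (oil 3) and 18.7 CPM (oil 4), from 322.5 to 422.5 counts a library. It had 38.1 (tamoxifen 1), 50.8 (tamoxifen 2) and 34.6 CPM (tamoxifen 4), from 626 to 861 counts. All the tamoxifen libraries were above all the oil libraries, with tamoxifen 2 the highest and tamoxifen 4 the lowest of its group. The mean rose from 19.1 ± 1.21 to 41.2 ± 8.55 CPM (SD, n = 3 each). On the log2 scale this was 1.11 (SE 0.16, 95% interval 0.74 to 1.47), and the edgeR adjusted p was 0.0301. The exons of Ptgs1 overlap an unclassified transcript on the other strand, Gm43621, and the strand setting of the counting was not given in the sources used here, so reads of both cannot be told apart.

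Its inducible paralog Ptgs2 (chr1:150100031-150108227, plus strand), cyclooxygenase-2, had 0 counts in all 6 libraries, which allows at most 0.177 CPM in any of them and covers counting error only. Hpgds, the haematopoietic prostaglandin D synthase, gave 8 counts in oil 1 and 0 in oil 3 and oil 4, against 1.5 (tamoxifen 1), 12 (tamoxifen 2) and 3 counts (tamoxifen 4). Ptges, an inducible prostaglandin E synthase, did not exceed 3 counts in any library. Hpgd, the dehydrogenase that inactivates prostaglandins, gave 7 (oil 1), 2 (oil 3) and 0 counts (oil 4) against 12 (tamoxifen 1), 17.5 (tamoxifen 2) and 6 counts (tamoxifen 4). The groups overlapped for Hpgds, Ptges and Hpgd. In an edgeR fit without the filter on low counts, the log2 fold changes were 1.13 for Hpgds (adjusted p 0.637), 0.98 for Ptges (adjusted p 0.732) and 2.05 for Hpgd (adjusted p 0.283). None of these 3 passed the threshold in that fit.

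In the lipoxygenase branch, Alox5, the 5-lipoxygenase that makes leukotriene A4, was the most abundant of the 10 genes by count. Alox5 (chr6:116410077-116461178, minus strand) had 371 (oil 1), 418 (oil 3) and 407 CPM (oil 4) against 528 (tamoxifen 1), 568 (tamoxifen 2) and 562 CPM (tamoxifen 4). The tamoxifen libraries lay close together, tamoxifen 4 included, and all were above the oil libraries. The mean rose from 399 ± 24.3 to 553 ± 21.5 CPM (SD, n = 3 each). On the log2 scale this was 0.47 (SE 0.086, 95% interval 0.27 to 0.67), and the edgeR adjusted p was 0.0420. No annotated gene overlaps Alox5.

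Alox5ap, the membrane protein that hands arachidonic acid to Alox5, did not pass the test. Alox5ap (chr5:149264767-149288153, plus strand) had 193 (oil 1), 214 (oil 3) and 196 CPM (oil 4) against 249.97 (tamoxifen 1), 285 (tamoxifen 2) and 203 CPM (tamoxifen 4). Tamoxifen 1 and 2 were above all the oil libraries, and tamoxifen 4 fell within the oil range. The means were 201 ± 11.3 and 246 ± 40.8 CPM (SD, n = 3 each). Tamoxifen minus oil was 0.29 on the log2 scale (SE 0.13), edgeR adjusted p 0.242, and without tamoxifen 4 it was 0.41, adjusted p 0.00373. Its exons overlap the antisense gene Gm19719.

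Ltc4s, the leukotriene C4 synthase (chr11:50236461-50238616, minus strand), was low, with 50.5 to 71 counts in the oil libraries and 74 to 101.5 in the tamoxifen libraries. Its level was 2.81 (oil 1), 3.44 (oil 3) and 3.60 CPM (oil 4) against 4.06 (tamoxifen 1), 6.02 (tamoxifen 2) and 5.52 CPM (tamoxifen 4), and the groups did not overlap. Tamoxifen minus oil was 0.66 on the log2 scale (SE 0.24, 95% interval 0.11 to 1.21), and the edgeR adjusted p of 0.196 misses the threshold. Its exons overlap the antisense gene Gm26542. The receptor Cysltr1 (chrX:106574346-106603679, minus strand) had 0 counts in all 6 libraries.

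**Figure D3:**
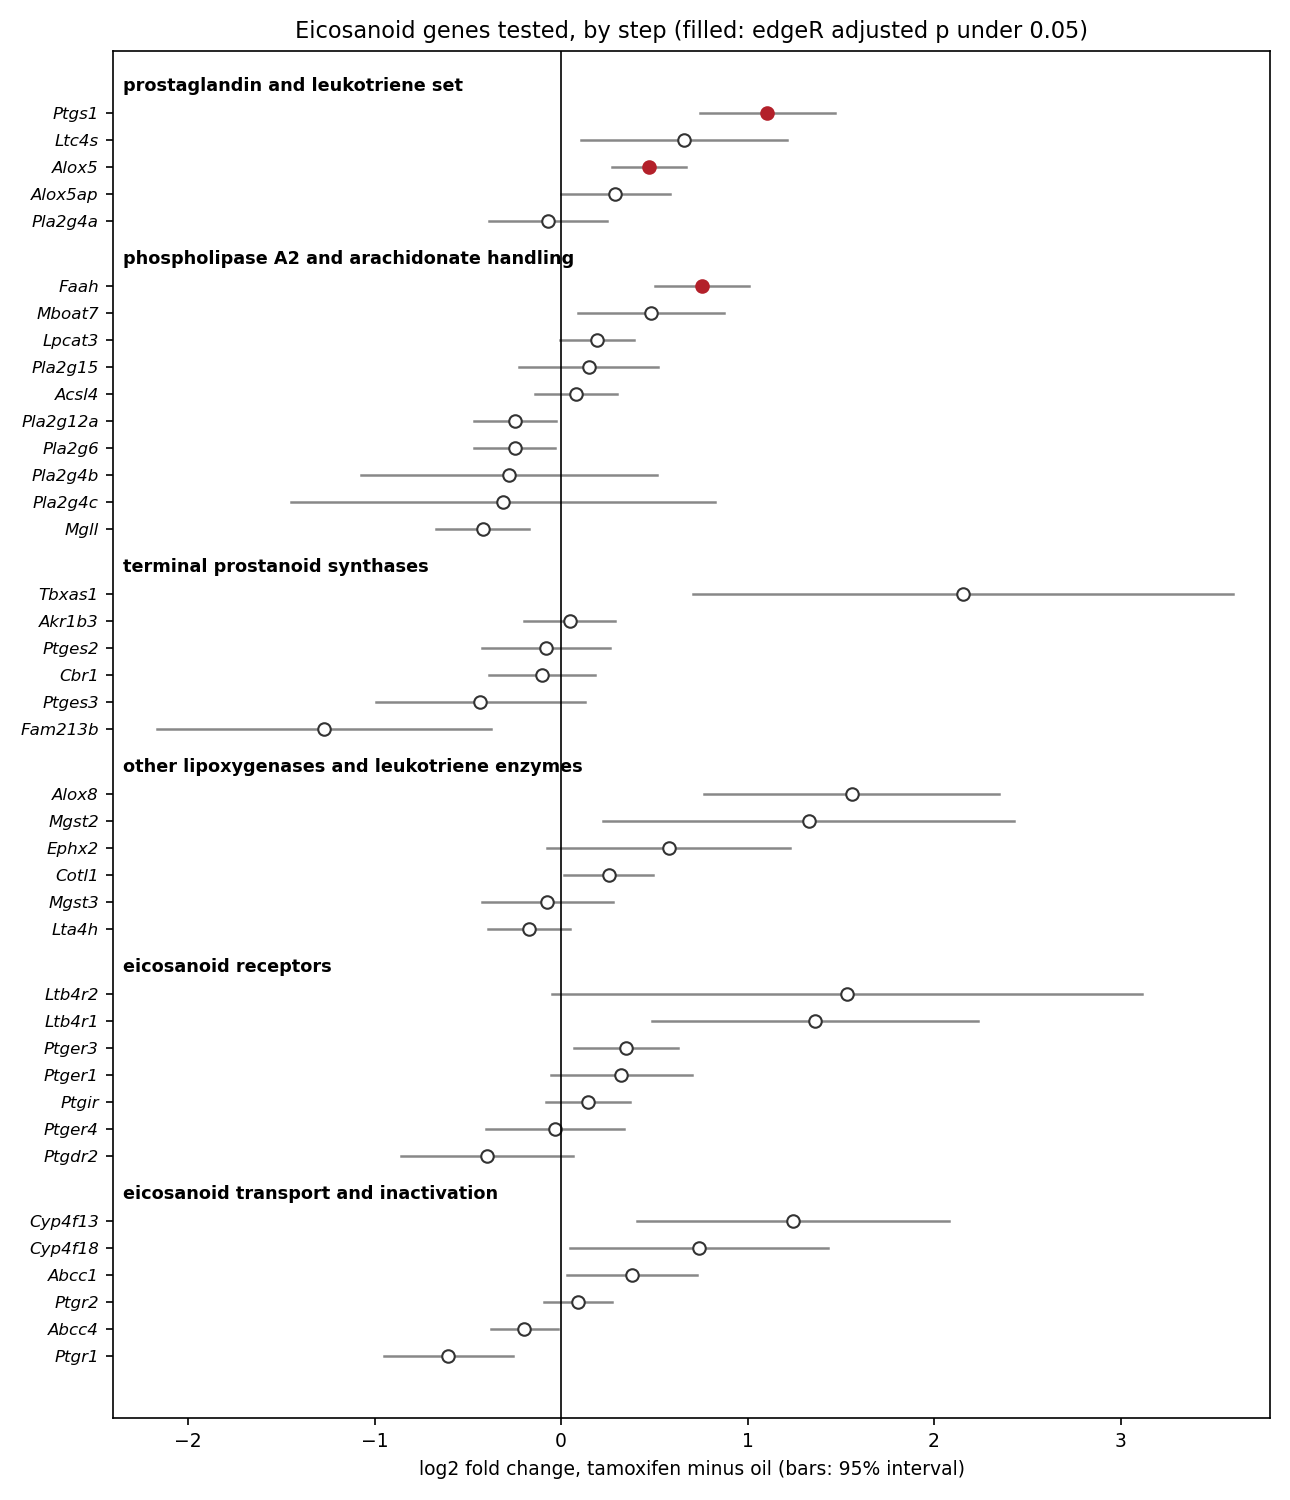
Log2 fold change, tamoxifen minus oil, with its 95% interval from edgeR, for the 5 tested genes of the set and for the 35 other tested eicosanoid genes, grouped by list. Filled points have an adjusted p under 0.05, which were Ptgs1 at 1.11, Alox5 at 0.47 and Faah at 0.75.

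The balance between the genes shifted within libraries, a measure that needs no scaling between them. Per count of Pla2g4a Ptgs1 had 0.261 (oil 1), 0.330 (oil 3) and 0.282 counts (oil 4) against 0.657 (tamoxifen 1), 0.940 (tamoxifen 2) and 0.452 counts (tamoxifen 4). The lowest tamoxifen ratio was above the highest oil ratio. Per count of Alox5, Ptgs1 had 0.0460 to 0.0490 counts in the oil libraries and 0.0616 to 0.0894 in the tamoxifen libraries, so Ptgs1 was higher relative to Alox5 in all 3. Per count of Alox5ap, Alox5 had 1.92 (oil 1), 1.95 (oil 3) and 2.08 counts (oil 4) against 2.11 (tamoxifen 1), 1.997 (tamoxifen 2) and 2.76 counts (tamoxifen 4). That last ratio overlapped between the groups, with tamoxifen 4 the highest of the 6. These ratios show unequal change and not which of their genes moved, and they were not tested.

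The calls of Ptgs1 and Alox5 rested on the full set of libraries. The log2 fold change of Ptgs1 was 0.93 to 1.22 when each library was left out in turn. Its edgeR adjusted p was 0.181, 0.131 and 0.149 without oil 1, 3 and 4, 0.0980 and 0.0577 without tamoxifen 1 and 2, and 0.000192 without tamoxifen 4. For Alox5 the log2 fold change was 0.42 to 0.50, and the adjusted p was 0.220, 0.167 and 0.183 without oil 1, 3 and 4, 0.112 and 0.105 without tamoxifen 1 and 2, and 0.00144 without tamoxifen 4. Both genes were thus called again only in the fit without tamoxifen 4, where Alox5ap passed as well. That fit called 3 of the 5 tested genes, beside 19.2% of the 11851 genes it tested that were called higher and 36.3% called in either direction. The edgeR fits without any of the other libraries called 0 of the 5, with 2 or 3 at an unadjusted p under 0.05, and over all genes called 8 to 16 higher and 0 lower.

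**Figure D4:**
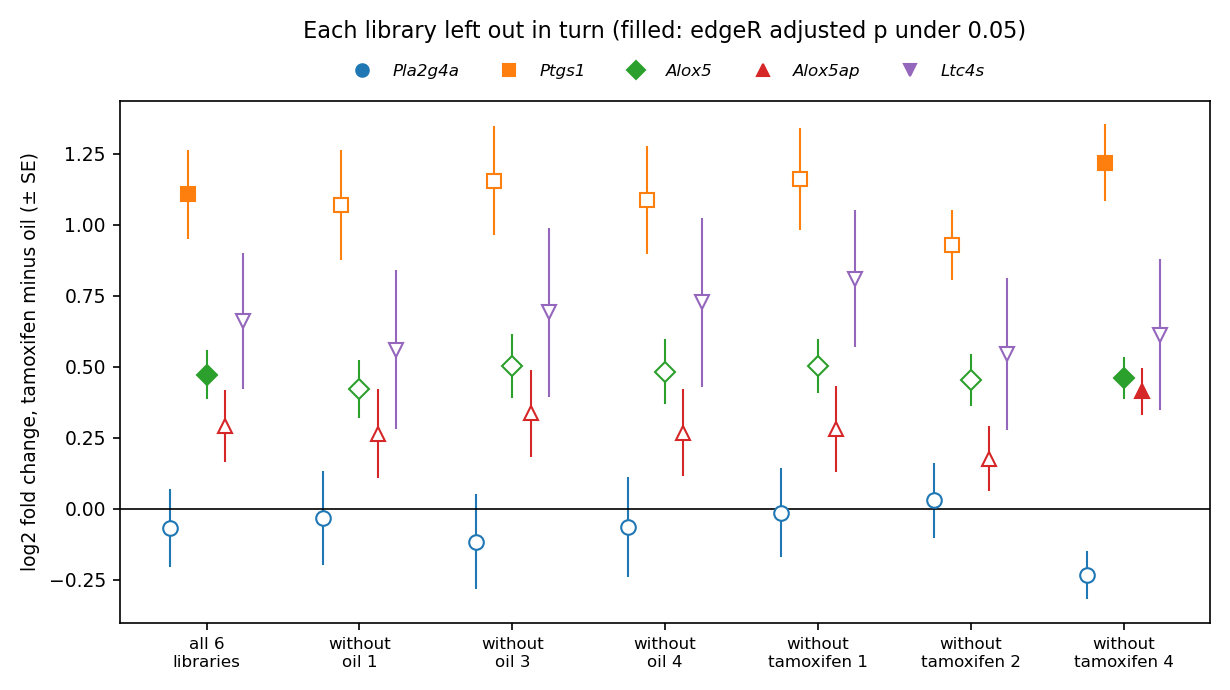
Log2 fold change, tamoxifen minus oil, with its SE for the 5 tested genes in the edgeR fit of all 6 libraries and with each library left out in turn; filled points have an adjusted p under 0.05. Ptgs1 stays between 0.93 and 1.22 and Alox5 between 0.42 and 0.50, while Pla2g4a lies on both sides of 0.

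The DESeq2 Wald test, the tool the submitters name, also called Ptgs1 (adjusted p 1.87e-07) and Alox5 (adjusted p 2.74e-05) and none of the other 3 tested genes, beside 6.14% of 11613 genes called higher and 8.13% in either direction. Alox5 lost its call under limma-voom (adjusted p 0.0545), under which Ptgs1 kept it (adjusted p 0.0459).

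Markers of other cells were measured beside these genes, since mast cells, basophils, eosinophils, platelets and macrophages also use this pathway. In bulk RNA, fewer cells of a type and less RNA per cell cannot be told apart. Transcripts of 13 mast cell markers were abundant in all the libraries and summed to 4625 (oil 1), 4877 (oil 3) and 4872 CPM (oil 4) against 7664 (tamoxifen 1), 10301 (tamoxifen 2) and 5381 CPM (tamoxifen 4). None of the 13 was at 0 in all the libraries. Of these 13 genes, 12 had a log2 fold change above 0, beside 50% of all tested genes. The edgeR test called 3 of the 13 higher, beside 1.75% of all tested genes. These were Fcer1a, the alpha chain of the high-affinity IgE receptor (2.12), the tryptase Tpsb2 (4.16) and the transcription factor Mitf (0.71). At an unadjusted p under 0.05 there were 10, all higher, beside 12.6% of all tested genes. Every tamoxifen value, tamoxifen 4 included, exceeded every oil value for 9 of the 13, beside 13.3% of all tested genes. The most abundant of the list were Il1rl1, the IL-33 receptor, Hdc, which makes histamine, and Ms4a2, the beta chain of the IgE receptor. Ms4a2 was at a log2 fold change of -0.040. Il1rl1, Hdc and Ms4a2 weigh most in the sum. In tamoxifen 4 they were at 1598, 1194 and 854 CPM, against oil means of 1655, 1138 and 896 CPM. In the same library Fcer1a was at 188 CPM against an oil mean of 84.0, Tpsb2 at 2.43 against 0.237 and Mitf at 79.3 against 60.5. Relative to the oil mean, the marker sum was 1.60, 2.15 and 1.12 in tamoxifen 1, 2 and 4, where Ptgs1 was 1.99, 2.66 and 1.81, Alox5ap 1.24, 1.42 and 1.01, and Alox5 1.32, 1.43 and 1.41. Ptgs1, Alox5ap and the marker sum were thus highest in tamoxifen 2 and lowest in tamoxifen 4 of the group, while Alox5 was nearly level across it. The part of these cells or markers in the results was not tested.

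**Figure D5:**
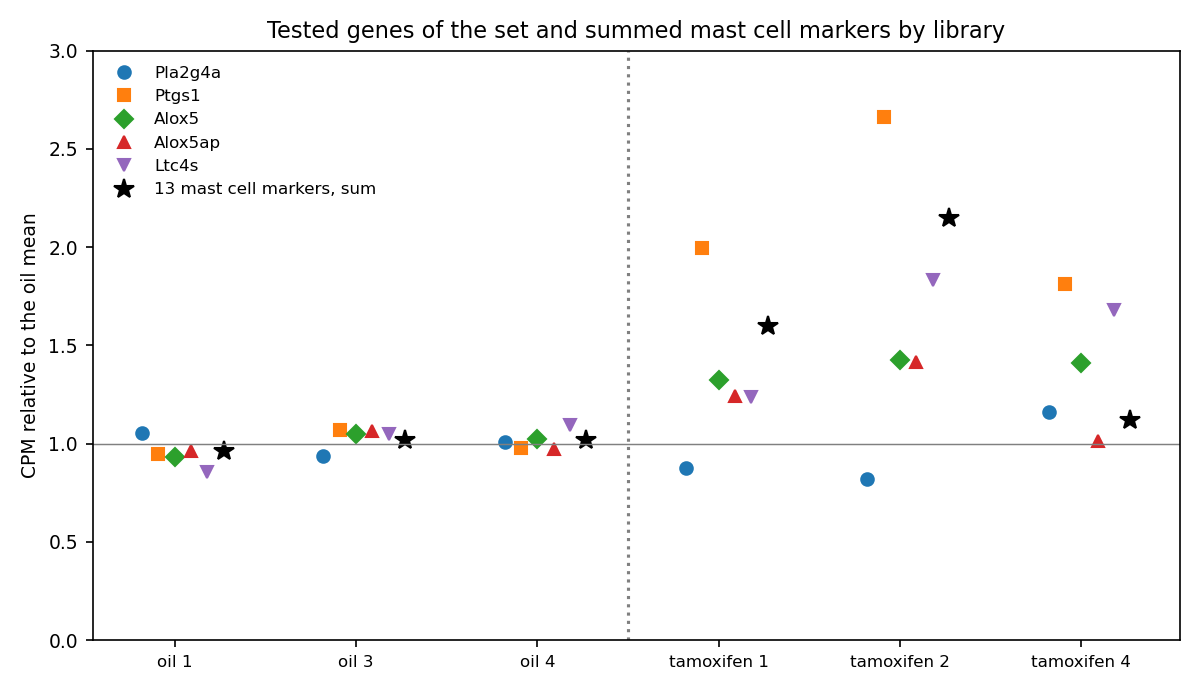
CPM of the 5 tested genes and the sum of 13 mast cell markers in each library, divided by the mean of the oil libraries. In tamoxifen 4 the marker sum is at 1.12 and Alox5ap at 1.01, while Ptgs1 is at 1.81 and Alox5 at 1.41. The sum is weighted to its most abundant genes, Il1rl1, Hdc and Ms4a2. Of the 13 markers, 9 were higher in every tamoxifen library than in every oil library.

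Platelet and megakaryocyte markers, 7 genes of which Gp6 was at 0 throughout, summed to 17.4 to 18.0 CPM in the oil libraries and 28.1 to 70.7 CPM in the tamoxifen libraries. Of the 2 that were tested, 1 was called higher, beside 1.75% of all tested genes. This was Itga2b, the platelet integrin alpha chain, with a log2 fold change of 2.51 (edgeR adjusted p 0.0435). Itga2b (means of 5.10 CPM in oil and 29.2 CPM in tamoxifen) and Vwf (12.2 and 16.1 CPM) made up nearly all of the platelet and megakaryocyte sum. The rest of that list was at or near 0. Pf4 had 9 counts in tamoxifen 2 and 0 elsewhere. The largest count was 3 for Ppbp, 2 for Gp1bb and 8.5 for Gp9. The 8 macrophage markers summed to 4.56 to 8.55 CPM in oil and 7.07 to 14.9 CPM in tamoxifen. Of the 7 tested, 0 passed and 2 had an unadjusted p under 0.05, beside 2.01% and 20.6% of all tested genes. The 4 basophil markers summed to 99.7 to 122 CPM in oil and 80.9 to 121 CPM in tamoxifen. Nearly all of this sum was Cd200r3, with means of 111 and 103 CPM (log2 fold change -0.10, edgeR adjusted p 0.727). Mcpt8 was at 0.633 and 2.62 CPM (2.05, adjusted p 0.131) and Prss34 at 0.397 and 0.857 CPM (1.09, adjusted p 0.309). Of the 3 tested, 0 passed and 1 had an unadjusted p under 0.05, beside the same shares of all tested genes. Eosinophil markers summed to 6.93 to 10.02 CPM in oil and 7.51 to 20.4 CPM in tamoxifen, with Epx and Ear1 at 0 and Prg2 at 0.5 counts or fewer. Neutrophil markers summed to at most 1.03 CPM, with Ly6g and S100a8 at 0. B cell markers summed to at most 0.177 CPM and T cell markers to at most 0.103 CPM, with Ms4a1, Pax5, Cd3e, Cd3g and Cd8a at 0. The 5 erythroid markers summed to 2568 to 3852 CPM in oil and 2072 to 4707 CPM in tamoxifen, so the groups overlapped.

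The other genes of the eicosanoid pathway were set beside the 10. Of 73 such genes with a row in the table, 35 had enough counts to be tested, and 20 of these had a log2 fold change above 0 and 15 below, with a median of 0.09. At an edgeR adjusted p under 0.05, 1 was higher and 0 were lower, beside 1.75% and 0.267% of all tested genes, while 17 had an unadjusted p under 0.05 (11 higher and 6 lower), beside 20.6% of all tested genes. The DESeq2 Wald test called 7, beside 8.13% of all genes it tested, and edgeR without tamoxifen 4 called 21, beside 36.3%. Every tamoxifen value exceeded every oil value for 6 of the 35 genes, and the opposite held for 6, beside 13.3% and 11.8% of all tested genes.

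The gene that passed was Faah, which degrades the endocannabinoid anandamide and so frees arachidonic acid. It rose from 15.6 ± 0.431 to 26.4 ± 1.23 CPM (SD, n = 3 each), which is 0.75 on the log2 scale (SE 0.11, edgeR adjusted p 0.0305). Its 3 tamoxifen libraries, at 25.4, 27.8 and 26.1 CPM, were all above the oil libraries and close to each other. The adjusted p was 0.181, 0.156 and 0.151 without oil 1, 3 and 4, 0.0980 and 0.0757 without tamoxifen 1 and 2, and 0.00101 without tamoxifen 4. The other 9 tested genes of phospholipase A2 and arachidonate handling did not pass in edgeR. DESeq2 called 1 of these 9, Mgll, beside 8.13% of all genes it tested. Among them Mboat7, which places arachidonate in phosphatidylinositol, was at 0.48 on the log2 scale (adjusted p 0.188) and Mgll, the monoacylglycerol lipase, at -0.42 (adjusted p 0.0946).

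Of 6 tested genes for terminal prostanoid synthases, 0 passed in edgeR, beside 2.01% of all tested genes. An unadjusted p under 0.05 was found for 2, 1 higher and 1 lower, beside 20.6% of all tested genes. DESeq2 called 1, Tbxas1, beside 8.13% of all genes it tested. Tbxas1, the thromboxane synthase, varied widely, with 0.872 to 1.96 CPM in the oil libraries against 4.94 (tamoxifen 1), 10.3 (tamoxifen 2) and 1.77 CPM (tamoxifen 4). Its log2 fold change was 2.16 (adjusted p 0.127), with tamoxifen 4 inside the oil range, and it was 1.41 without tamoxifen 2 (adjusted p 0.370). Fam213b, a prostaglandin F synthase, was at 2.24 ± 0.756 CPM in oil and 0.927 ± 0.293 CPM in tamoxifen (SD, n = 3 each), or -1.27 on the log2 scale (adjusted p 0.139). Ptges3, a cytosolic prostaglandin E synthase also known as an Hsp90 co-chaperone, was at 76.1 and 78.2 CPM in tamoxifen 1 and 2, below all the oil libraries, and at 146 CPM in tamoxifen 4. Its log2 fold change was -0.43 (adjusted p 0.337), and without tamoxifen 4 it was -0.81 (adjusted p 0.000379).

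Of 6 tested genes for other lipoxygenases and leukotriene enzymes, 4 had a log2 fold change above 0 and 2 below. In edgeR 0 of them passed and 3, all higher, had an unadjusted p under 0.05, beside 2.01% and 20.6% of all tested genes. DESeq2 called 1, Alox8, beside 8.13% of all genes it tested. Alox8, another arachidonate lipoxygenase, was at 1.24 to 2.04 CPM in oil and 3.65 to 6.38 CPM in tamoxifen, or 1.56 on the log2 scale (adjusted p 0.0659). Mgst2, which like Ltc4s can make leukotriene C4, was at 1.33 on that scale (adjusted p 0.194), and the epoxide hydrolase Ephx2 at 0.58 (adjusted p 0.287). Lta4h, the hydrolase that takes leukotriene A4 to leukotriene B4 instead of leukotriene C4, was at 160 ± 4.16 CPM in oil and 142 ± 15.1 CPM in tamoxifen (SD, n = 3 each), or -0.17 on the log2 scale (SE 0.096, adjusted p 0.337).

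Of 7 tested receptors, 0 passed in edgeR and 2, both higher, had an unadjusted p under 0.05, beside 2.01% and 20.6% of all tested genes. DESeq2 called 1, Ltb4r1, beside 8.13% of all genes it tested. The second cysteinyl leukotriene receptor Cysltr2 and the prostaglandin receptors Ptgdr, Ptger2 and Ptgfr, like Cysltr1, had 0 counts in all 6 libraries. The leukotriene B4 receptors Ltb4r1 and Ltb4r2 were at 1.36 (adjusted p 0.114) and 1.53 (adjusted p 0.254) on the log2 scale. Ltb4r2 was at 1.18 to 3.10 CPM in oil against 4.72 (tamoxifen 1), 11.8 (tamoxifen 2) and 1.44 CPM (tamoxifen 4), so the groups overlapped. Without tamoxifen 2 the log2 value of Ltb4r2 was 0.58 (adjusted p 0.699). Ptgdr2, a receptor for prostaglandin D2, was at -0.40 on the log2 scale (adjusted p 0.296). Of 6 tested genes for transport and inactivation, 0 passed in edgeR, beside 2.01% of all tested genes. An unadjusted p under 0.05 was found for 5, 3 higher and 2 lower, beside 20.6% of all tested genes. DESeq2 called 2, Ptgr1 and Cyp4f13, beside 8.13% of all genes it tested. Cyp4f13 was at 1.24 on the log2 scale (adjusted p 0.127) and Cyp4f18, which oxidises leukotriene B4, at 0.74 (adjusted p 0.226). Ptgr1, a reductase that inactivates leukotriene B4 and prostaglandins, was at -0.60 (adjusted p 0.0859), and -0.80 without tamoxifen 4 (adjusted p 9.67e-05).

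The tested genes most like Ptgs1 over the 6 libraries, by Pearson r of log2 CPM, were Ifitm2 (r = 0.999), Fbxw8 (0.999) and Dtd1 (0.998). Those most like Alox5 were Pigx (0.995), Spryd7 (0.991) and Mx2 (0.990). These values describe the libraries, which share the split into oil and tamoxifen, and each is the top of 11613 others.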

How the data were processed

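RNA was extracted with Trizol, and the authors deposited 1 table of unscaled estimated counts by gene symbol. The submitters' processing notes name STAR, DESeq2 and mm10, and the counting program, annotation and strand setting were not given in the sources used here. In each library 25.9% to 27.3% of the values were not whole, and counts were rounded before testing. The symbols of 26 rows read as dates, and these rows stayed in the totals unnamed. Sample titles number the libraries oil 1, 2 and 4 and tamoxifen 1, 3 and 4, whereas the columns read oil 1, 3 and 4 and tamoxifen 1, 2 and 4. Oil 3 and tamoxifen 2 thus match no title by number and served as replicates of the group in their name. The study's methods give 3 mice a group.

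Tests used R 4.3.3 and edgeR 4.0.16, with filterByExpr by group, TMM scaling and the quasi-likelihood F test, adjusted by the Benjamini-Hochberg method over 11614 genes with a threshold of 0.05. SEs were derived from the F statistics. Exon lengths and positions came from GENCODE M21 (GRCm38) and promoters from RefSeq. Correlations used log2 CPM with a prior count of 2. Alternatives were DESeq2 size factors, the DESeq2 1.42.0 Wald test, limma-voom (limma 3.58.1), no low-count filter, a replicate block and each library left out. The scripts were tested on simulated data. The 10 genes, the 5 pathway and 10 marker lists and the rule for naming genes were chosen with earlier results of these data known. The genes named were the 10, Usp18, eicosanoid genes past the threshold or among the 3 largest absolute log2 fold changes of their list, the 3 genes most like each called gene, and at most 3 of each marker list by mean CPM. Lta4h, the genes named as at 0 and the other markers named were chosen after their values were seen. The result of 1 marker gene is not reported here.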

Additional observations from a re-analysis of the deposited data

How the results depend on the processing

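Alternatives to the edgeR fit moved the number of calls more than the fold changes. Of the 5 tested genes, 2 were also called with DESeq2 size factors, the DESeq2 Wald test and no low-count filter, 1 under limma-voom, 1 with the replicate block and 0 to 3 with a library left out. Ptgs1 ran from 0.93 to 1.22 and Alox5 from 0.42 to 0.50 (log2) with a library left out. Alox5 missed the threshold under limma-voom (0.47) and the replicate block (0.49, adjusted p 0.240), where Ptgs1 was 0.98 (adjusted p 0.00731). Alox5ap ran from 0.18 to 0.41, Pla2g4a from -0.23 to 0.029 and Usp18 from 0.73 to 1.18. Usp18 passed under the DESeq2 Wald test (0.9997) and without the low-count filter (0.99). The block was fitted because numbers 1 and 4 occur in both groups. Oil 3 and tamoxifen 2 each formed a block alone, so its fold changes compare only libraries 1 and 4 of each group. The block left 1 residual degree of freedom. Same-numbered deviations had correlations of -0.13 and 0.06. With 2 pairs, and numbers that differ in part from the sample titles, these values cannot show whether libraries were paired. A shared day or batch was not tested.

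Genes called higher were 713 under the DESeq2 Wald test, 48 under limma-voom, 372 without the filter, 215 with the block and 8 to 2278 with a library left out. Genes called lower were 231, 6, 61, 26 and 0 to 2024. Of the other 35 eicosanoid genes, 7 were called by DESeq2, 3 without the filter, 0 with the block and 0 to 21 with a library left out. Their direction reversed in 11 of 385 values. With the block Pla2g15 was -0.077 and Ptger4 0.11, Tbxas1 moved from 2.16 to 1.09 and Ltb4r2 from 1.53 to 0.84, and with a library left out Pla2g15 ran from -0.030 to 0.24, Acsl4 from -0.0073 to 0.14, Ptges2 from -0.19 to 0.032, Akr1b3 from -0.0062 to 0.094, Mgst3 from -0.17 to 0.086 and Ptger4 from -0.22 to 0.059. The fits that left out a library have fewer samples. The cause was not tested for other settings. Ptges did not exceed 3 counts in any library, so depth limits its values.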
